A study of Homo sapiens with 24 samples.

Results

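Huh7 cells, a line from a human hepatocellular carcinoma, in which ABHD6 had been knocked out (KO) were compared after 48 h of palmitic acid and in the basal state (0 h). The comparison takes every library labelled KO at these times, 4 at 48 h and 4 at 0 h, which are 8 of the 24 libraries of the series, and all 17252 genes whose expression could be tested. The KO cells at 48 h had been given 800 µM palmitic acid, and the KO cells at 0 h were harvested before any was given; both carried the ABHD6 knockout. Set beside them are KO cells after 24 h of the acid, wild-type (WT) Huh7 cells after 48 h of the acid, and WT cells at 0 h, with 4 libraries each. Messenger RNA was sequenced from libraries of a directional kit, and expression is given as FPKM, which scales fragment counts for transcript length and library size.

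Palmitic acid is a saturated fatty acid with a long chain. Hepatocytes activate it to an acyl-CoA, desaturate it, burn it in mitochondria or store it as triglyceride in lipid droplets, and an excess disturbs the membrane of the endoplasmic reticulum (ER). Cells answer ER disturbance with the unfolded protein response, which induces ER chaperones, and with the integrated stress response, in which phosphorylation of eIF2α lowers general translation while the transcription factor ATF4 is made and induces its targets. ABHD6 encodes a serine hydrolase of membranes that cleaves monoacylglycerols and some lysophospholipids.

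The genotype could not be checked in these values. ABHD6 (chromosome 3, 58237506 to 58295693, GRCh38) was listed at 0.718, 0.693, 0.771 and 0 FPKM in KO libraries at 48 h and at 0 in all 4 KO libraries at 0 h, which left it below the floor for testing. In WT cells it was listed at 0.846, 0, 0 and 0 FPKM at 48 h and at 1.16, 0, 0 and 0 FPKM at 0 h. The cells are therefore KO by their labels. How many KO clones there were is not stated, nor whether replicates were grown apart. The p-values therefore cover the spread among the libraries at hand, which may be technical. Because no KO culture without the acid was sampled after 48 h, effects of the acid and of time cannot be told apart. The treatment text of the labels describes a harvest on the first day after treatment only, so the 48 h come from the sample titles. In bulk RNA, fewer cells of a kind and less RNA per cell cannot be told apart either.

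The steps of the smallest values placed 645945 to 716809 fragments behind the KO libraries at 48 h and 414265 to 506337 behind those at 0 h, and 1 fragment on a transcript of 2000 bases equals 0.646 to 1.25 FPKM over the 24 libraries. More genes were above 0 at 48 h (14637 ± 224) than at 0 h (13303 ± 158; SD, n = 4 each, exact permutation p = 0.0286). That p is the smallest that 4 against 4 libraries allow, and it was also reached by the other measures of a library: summed FPKM (857230 ± 41633 at 48 h and 1151100 ± 62258 at 0 h), the share of the summed FPKM that went to genes annotated as antisense (44.6% ± 0.491 and 57.2% ± 0.551), that of mitochondrially encoded genes (13.8% ± 0.798 and 3.89% ± 0.519) and that of ribosomal protein genes (0.717% ± 0.0348 and 0.608% ± 0.0352); adjusted over these 5 measures it stayed 0.0286. The shares are of a summed FPKM that was itself lower at 48 h, so a higher share need not mean higher FPKM. Of 39 ribosomal protein genes tested, 3 rose and 9 fell. In WT cells their share was 0.604% at 48 h and 0.606% at 0 h. The other measures moved in WT as in KO cells. At 48 h and at 0 h WT means were 45.9% and 57.0% for the antisense share and 11.1% and 3.53% for the mitochondrial share. They were 886560 and 1106500 for summed FPKM and 14602 and 13326 for genes above 0. A difference between genotypes in these measures was not tested. The antisense share is high for a kit that keeps the strand, and how strand was handled in counting was not stated in the labels or files. Reads of a gene and of a partner that overlaps it on the opposite strand can therefore not be told apart, and for protein-coding genes described below the annotated partner is named. Whether the handling of strand also affected the values of genes without such a partner was not tested.

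After 48 h of palmitic acid the KO cells had higher levels of 6 of 17 factors of the integrated stress response, 12 of 26 cholesterol genes, 9 of 26 NRF2 targets, 9 of 27 lysosomal genes and 12 of 13 mitochondrially encoded genes, and lower levels of 9 of 28 genes of mitosis, than at 0 h. Over the genome, limma called 1695 of 17252 genes (9.82%) at a Benjamini-Hochberg adjusted p under 0.05, of which 587 (3.4%) were higher and 1108 (6.42%) lower at 48 h; 505 of the higher and 707 of the lower genes changed at least 2-fold. Values are compared as log2(FPKM + 0.5), which understates the change of low genes, and fold changes below are log2, KO 48 h over KO 0 h, with their standard error. The split between higher and lower calls depended on scaling. Rescaling by medians of ratios, which moves the median of all genes by 0.11, gave 813 genes higher against 849 lower, and quantile normalization 747 and 677. Scaling over protein-coding genes with no opposite-strand overlap moved the split the other way, to 471 higher and 1460 lower of 1931 called.

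The direction also went with the kind of gene. Of 6786 protein-coding genes with no opposite-strand overlap, 458 (6.75%) were called, 329 (4.85%) higher and 129 (1.9%) lower, with a median of 0.29. Of 5257 protein-coding genes with such an overlap, 688 (13.1%) were called, 172 (3.27%) higher and 516 (9.82%) lower (median -0.05). Of 2228 antisense genes, 361 (16.2%) were called, 48 (2.15%) higher and 313 (14%) lower (median -0.39). The 2981 other genes gave 188 calls (6.31%), 38 (1.27%) higher and 150 (5.03%) lower. Fitted alone, the 9303 genes of any kind with no overlap gave 388 calls, 265 higher and 123 lower. For lists of protein-coding genes below, the protein-coding shares and medians are a nearer background than those of all genes.

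**Figure D1:**
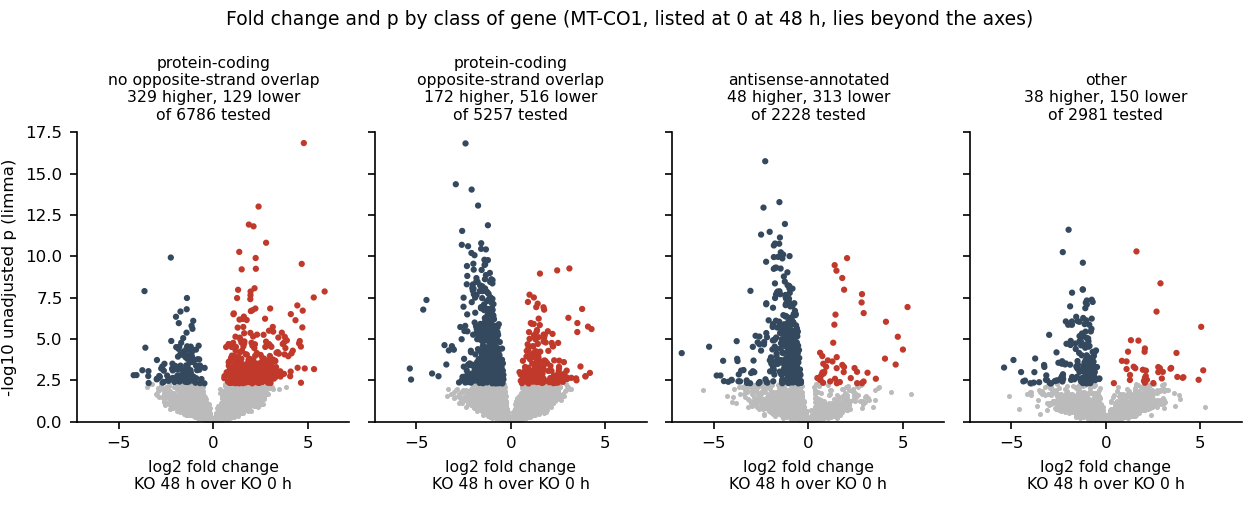
Log2 fold change of each tested gene between KO cells at 48 h and at 0 h (x axis) against -log10 of its unadjusted limma p (y axis), 1 panel for each kind of gene, with genes called higher in red and lower in dark blue. Higher calls outnumber lower calls among protein-coding genes with no opposite-strand overlap (329 and 129), and lower calls outnumber higher calls among antisense genes (313 and 48).

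Of 17 tested transcription factors and feedback genes of the integrated stress response, 6 rose and 0 fell (3.4% and 6.42% of all genes did), with a median log2 fold change of 1.16 where the median of all genes was 0. ATF4, the transcription factor itself, had 100.1, 117, 130.1 and 143 FPKM in KO 48 h libraries and 65.4, 36.8, 33.4 and 35.6 FPKM in KO 0 h libraries. The groups did not overlap, and ATF4 rose by 1.55 ± 0.23 (adjusted p = 4.68e-05). PPP1R15A, which recruits the phosphatase that reverses eIF2α phosphorylation, had 35.1, 40.8, 34.1 and 32.3 FPKM in KO 48 h libraries and 7.14, 8.61, 10.1 and 4.29 FPKM in KO 0 h libraries, again without overlap. PPP1R15A rose by 2.22 ± 0.30 (adjusted p = 1.41e-05). ATF3, a stress-induced repressor, had 16.02, 23.8, 20.01 and 15.3 FPKM in KO 48 h libraries and 1.63, 0, 0 and 0 FPKM in KO 0 h libraries. At 0 h 3 of the 4 libraries were at 0 and all lay below those at 48 h. ATF3 rose by 4.72 ± 0.64 (adjusted p = 1.77e-05).

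TRIB3, a pseudokinase that restrains ATF4 targets, rose by 1.59 ± 0.30 (adjusted p = 0.000925), from values that did not overlap (24.6, 17.1, 27.9 and 22.7 FPKM at 48 h and 6.16, 6.57, 7.28 and 9.26 FPKM at 0 h). GDF15, a secreted stress cytokine, rose by 4.09 ± 1.07 and NUPR1, a stress-induced chromatin protein, by 3.54 ± 0.93. DDIT3, the factor CHOP, had 30.2, 34.6, 40.7 and 41.4 FPKM in KO 48 h libraries and 24.5, 12.2, 22.9 and 32.5 FPKM in KO 0 h libraries. DDIT3 changed by 0.73 ± 0.31 (adjusted p = 0.152). CEBPB changed by 0.30 ± 0.34 (adjusted p = 0.678). Neither passed. Among 13 enzymes of amino acid synthesis that ATF4 is known to induce, PSAT1 of the serine pathway passed (1 higher, 0 lower, median 0.50) with 0.78 ± 0.24, and with values scaled over protein-coding genes without overlap none did. Of 14 amino acid transporters 3 rose, the cystine carrier SLC7A11 (1.42 ± 0.30), the arginine carrier SLC7A1 (1.61 ± 0.44) and the glutamine carrier SLC38A2 (1.21 ± 0.37), and 2 fell, SLC3A1 (-0.96 ± 0.13) and SLC7A6 (-0.55 ± 0.12), subunits of carriers of basic amino acids. Of 20 tRNA synthetases, 0 rose and 1, HARS (-0.87 ± 0.22), fell (median 0.36), while 3 rose with median-of-ratios rescaling, after quantile normalization or without KO 0 h replicate 2. Each of the 8 libraries was also left out in turn. GDF15 lost its call in 3 of 8 fits without 1 library (highest adjusted p = 0.0644, without KO 0 h replicate 3). NUPR1 lost its call in 3 of 8 fits without 1 library (highest adjusted p = 0.0556, without KO 0 h replicate 3). PSAT1 lost its call in 6 of 8 fits without 1 library (highest adjusted p = 0.107, without KO 0 h replicate 3). SLC7A1 lost its call in 1 of 8 fits without 1 library (highest adjusted p = 0.0524, without KO 48 h replicate 0). SLC38A2 lost its call in 3 of 8 fits without 1 library (highest adjusted p = 0.156, without KO 0 h replicate 3). The list of factors had 4 higher without KO 0 h replicate 3, and the transporters 1 without KO 48 h replicate 0. GDF15 changed by 4.75 without KO 0 h replicate 1, over 1.5-fold from the value with all libraries. NUPR1 changed by 4.68 without KO 0 h replicate 0, over 1.5-fold from the value with all libraries. SLC7A6 and HARS lost their calls after quantile normalization. PSAT1 and SLC38A2 lost their calls with scaling over protein-coding genes without overlap. NUPR1, SLC7A1 and SLC38A2 lost their calls with only the KO 48 h and KO 0 h libraries. PSAT1, SLC38A2 and SLC7A6 lost their calls without a variance trend. The exons of DDIT3 (MARS), CEBPB (CEBPB-AS1), SLC7A11 (SLC7A11-AS1), SLC3A1 (PREPL), SLC7A6 (SLC7A6OS) and HARS (HARS2) overlap those of the opposite-strand gene given in brackets.

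Of 20 tested chaperones and oxidases of the ER, 3 rose and 1 fell (3.4% and 6.42% of all genes did), with a median of 0.53. HSPA5 (BiP), the main ER chaperone, had 129.6, 128, 155 and 148 FPKM in KO 48 h libraries and 79.2, 61.4, 78.1 and 67.96 FPKM in KO 0 h libraries. Every library at 48 h was above every library at 0 h, and HSPA5 rose by 0.96 ± 0.19 (adjusted p = 0.000988). HYOU1, a chaperone and exchange factor of the ER, had 37.4, 36.5, 45.9 and 37.6 FPKM in KO 48 h libraries and 17.4, 16.2, 13.2 and 15.8 FPKM in KO 0 h libraries. HYOU1 rose by 1.30 ± 0.28 (adjusted p = 0.00343). HERPUD1, which helps to move misfolded proteins to degradation, had 31.1, 44.6, 39.7 and 31.9 FPKM in KO 48 h libraries and 1.07, 15.9, 0 and 0 FPKM in KO 0 h libraries. Its libraries at 0 h were spread between 0 and 15.9 FPKM, all below those at 48 h, and it rose by 4.53 ± 0.84 (adjusted p = 0.000665). CALR, the lectin chaperone calreticulin, went the other way, with 387, 385, 326 and 361 FPKM in KO 48 h libraries and 625, 524, 731 and 461 FPKM in KO 0 h libraries, again without overlap. CALR fell by 0.66 on the log2 scale (SE 0.16, adjusted p = 0.00634). The third riser was the co-chaperone DNAJB9 (2.95 ± 0.76). HERPUD1 was the 1 that rose of 21 genes of ER-associated degradation and of the stress sensors (0 fell, median 0.94; 2 rose without KO 0 h replicate 0 or KO 48 h replicate 0). HSP90B1, the ER member of the HSP90 family, changed by 0.37 ± 0.18 (adjusted p = 0.249) and did not pass. XBP1, a transcription factor of the unfolded protein response, did not pass either, with 60.6, 72.1, 44.9 and 73.3 FPKM in KO 48 h libraries and 79.1, 61.97, 79.3 and 37.2 FPKM in KO 0 h libraries (adjusted p = 1). Quantile normalization gave 5 chaperones that rose and none that fell, rescaling by medians of ratios gave 6 and 1, and without KO 0 h replicate 1 the number higher was 2. The call of DNAJB9 was lost without 1 library in 2 of 8 fits (adjusted p = 0.0672 without KO 0 h replicate 3). HERPUD1 changed by 5.65 without KO 0 h replicate 1, over 1.5-fold from the value with all libraries. DNAJB9 changed by 3.70 without KO 0 h replicate 0 and 2.12 without KO 0 h replicate 3, over 1.5-fold from the value with all libraries. CALR lost its call after quantile normalization and without a variance trend. HERPUD1 and DNAJB9 lost their calls with only the KO 48 h and KO 0 h libraries. The exons of HYOU1 (AP003392.3), CALR (AC092069.1), DNAJB9 (THAP5) and HSP90B1 (C12orf73) overlap those of the opposite-strand gene given in brackets.

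The promoters of 4 of these genes are shown because they hold the letters of known stress elements and belong to genes that moved in opposite directions. Each run is the 250 bases before the annotated start (RefSeq, GRCh38.p14), 5′ to 3′ on the strand of the gene, with the matched letters in capitals. The ER stress element was searched as CCAAT and CCACG with 9 bases between them, and the ATF4 composite element as TGATGNAAN, on both strands, in the 250 bases before to 50 bases after a start. In the order of the lines they lie at chr9:125241344-125241593, minus strand, at chr19:12938359-12938608, plus strand, at chr16:56931892-56932141, plus strand, and at chr1:212565157-212565406, plus strand.
HSPA5 promoter: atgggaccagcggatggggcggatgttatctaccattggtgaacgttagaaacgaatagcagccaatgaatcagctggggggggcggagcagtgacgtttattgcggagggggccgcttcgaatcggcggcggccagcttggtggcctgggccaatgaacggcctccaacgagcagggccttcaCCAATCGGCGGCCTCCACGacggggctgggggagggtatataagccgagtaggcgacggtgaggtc
CALR promoter: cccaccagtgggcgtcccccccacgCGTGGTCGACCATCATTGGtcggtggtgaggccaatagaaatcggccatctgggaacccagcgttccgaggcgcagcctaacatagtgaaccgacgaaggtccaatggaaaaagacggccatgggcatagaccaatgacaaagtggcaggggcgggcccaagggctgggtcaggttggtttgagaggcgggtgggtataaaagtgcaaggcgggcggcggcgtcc
HERPUD1 promoter: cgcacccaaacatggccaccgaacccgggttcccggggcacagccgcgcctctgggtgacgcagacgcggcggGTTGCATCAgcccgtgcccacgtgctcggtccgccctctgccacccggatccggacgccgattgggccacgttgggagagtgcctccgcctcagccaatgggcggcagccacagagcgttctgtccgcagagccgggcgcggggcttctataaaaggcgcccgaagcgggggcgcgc
ATF3 promoter: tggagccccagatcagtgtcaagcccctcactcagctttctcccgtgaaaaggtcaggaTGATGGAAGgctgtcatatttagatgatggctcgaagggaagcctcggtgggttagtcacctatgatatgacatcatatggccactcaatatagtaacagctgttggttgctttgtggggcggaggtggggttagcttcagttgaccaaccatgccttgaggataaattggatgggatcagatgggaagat
The match in HSPA5, which rose, and the match in CALR, which fell, were both to the ER stress element, in HSPA5 on the strand of the gene and in CALR on the other strand. The matches in HERPUD1 and ATF3 were to the ATF4 element, in HERPUD1 on the other strand. A second annotated start of ATF3 had no match in its window. Each of the windows shown held 1 match to the 4 motifs searched, so no matches overlapped. The ER stress element occurred in 0.0769% of 35116 promoters. The other shares are counted by gene, with a match in any of its promoters. By gene it was in 0.158% of those tested, 0.244% of those called higher and 0.177% of those called lower. That was 1 gene called higher and 1 called lower. The ATF4 element occurred in 3.61% of all promoters. By gene it was in 2.75% of those tested, 3.18% of those called higher and 2.84% of those called lower. Of 26 stress, sterol and cell cycle genes looked up, 22 had a promoter in the table and 7 held a match.

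**Figure D2:**
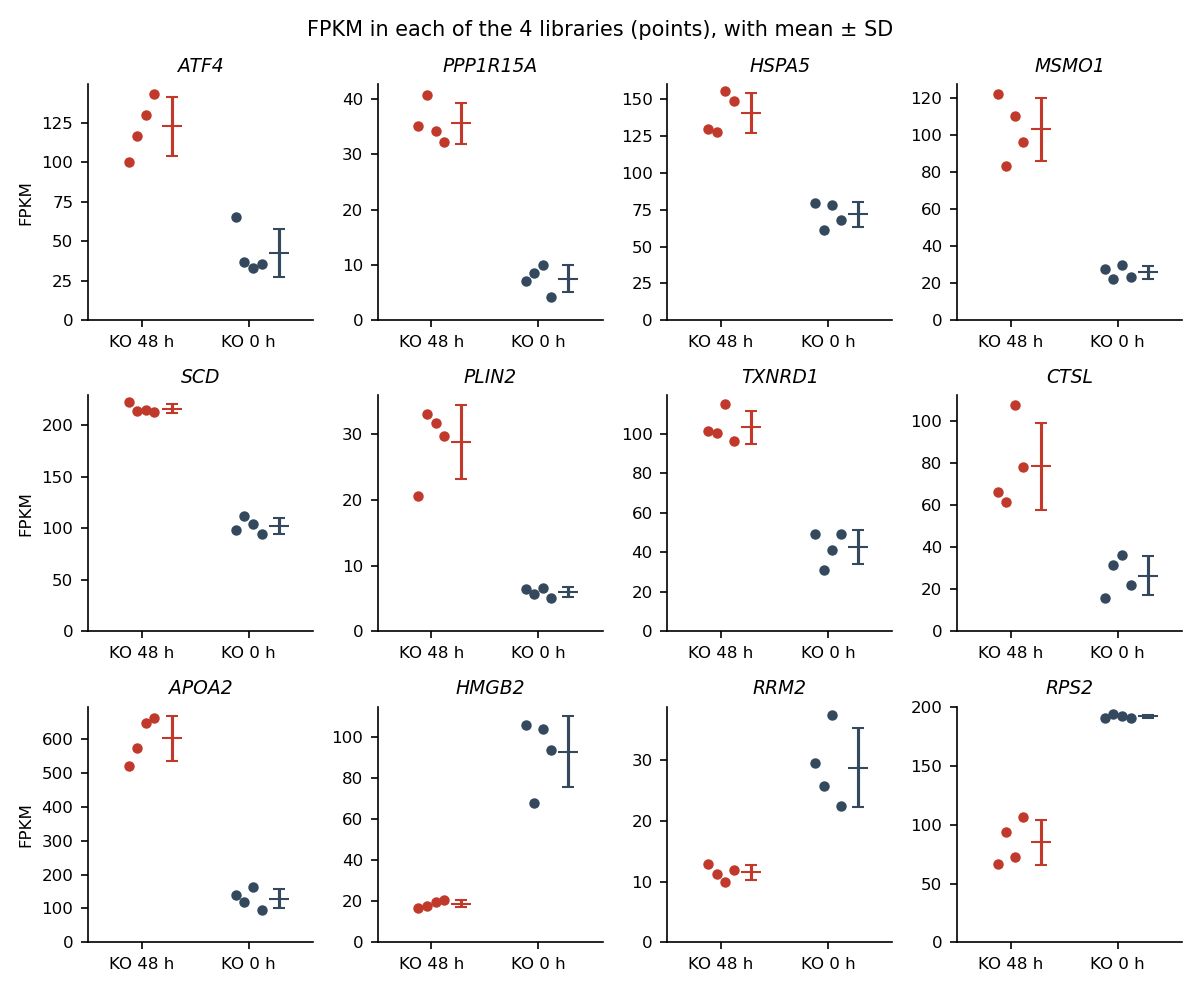
FPKM in each KO library at 48 h (left) and at 0 h (right) for 12 genes, 1 panel each, with points for libraries and a bar for the mean ± SD. In the panels of ATF4, PPP1R15A, HSPA5, MSMO1, SCD, PLIN2, TXNRD1, CTSL and APOA2 all 4 libraries at 48 h lie above the 4 at 0 h, and in those of HMGB2, RRM2 and RPS2 all 4 lie below.

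Of 26 tested genes of cholesterol synthesis and uptake, 12 rose and 1 fell (3.4% and 6.42% of all genes did), with a median of 0.82. Among the 13 without an opposite-strand overlap 6 rose and 0 fell. HMGCS1, which makes the precursor of mevalonate, had 175, 134, 135 and 163 FPKM in KO 48 h libraries and 62.4, 46.4, 33.2 and 43.4 FPKM in KO 0 h libraries. HMGCS1 changed by 1.72 ± 0.23 (adjusted p = 1.24e-05). CYP51A1, the lanosterol demethylase, had 317, 297, 304 and 307 FPKM in KO 48 h libraries and 112, 87.04, 93.5 and 134 FPKM in KO 0 h libraries. CYP51A1 changed by 1.54 ± 0.16 (adjusted p = 2.91e-07). MSMO1, a later oxidase of the pathway, had 122, 83.3, 110.3 and 96.02 FPKM in KO 48 h libraries and 27.7, 22.6, 29.7 and 23.4 FPKM in KO 0 h libraries. MSMO1 changed by 1.97 ± 0.23 (adjusted p = 2.16e-06). For each of these genes the libraries of the 2 groups lay apart.

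INSIG1, which holds the sterol sensor SCAP in the ER and is itself a target of SREBP factors, had 75.9, 66.9, 98.3 and 87.4 FPKM in KO 48 h libraries and 34.3, 17.1, 23.7 and 33.99 FPKM in KO 0 h libraries. INSIG1 rose by 1.61 ± 0.23 (adjusted p = 3.59e-05). Enzymes of the pathway that also rose were IDI1 (1.47 ± 0.21), FDFT1 (1.43 ± 0.27), SQLE (1.63 ± 0.27), SC5D (2.65 ± 0.45) and EBP (0.91 ± 0.26). The member that fell was ACAT2, the cytosolic thiolase (-0.46 ± 0.14). The number higher was 14 with median-of-ratios rescaling or quantile normalization, where 0 fell, and 10 to 11 when 1 library was left out. EBP lost its call in 4 of 8 fits without 1 library (highest adjusted p = 0.0856, without KO 0 h replicate 0). ACAT2 lost its call in 4 of 8 fits without 1 library (highest adjusted p = 0.145, without KO 48 h replicate 1). The strict sterol element TCACCCCAC was in 0.43% of promoters and in none of the 4 promoters looked up for CYP51A1, HMGCS1, INSIG1 and MSMO1. ACAT2 lost its call with median-of-ratios rescaling and after quantile normalization. EBP lost its call with scaling over protein-coding genes without overlap. EBP and ACAT2 lost their calls with only the KO 48 h and KO 0 h libraries and without a variance trend. The exons of IDI1 (IDI2-AS1), FDFT1 (AC069185.1), CYP51A1 (CYP51A1-AS1) and HMGCS1 (AC114947.2) overlap those of the opposite-strand gene given in brackets.

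Of 18 tested genes of fatty acid synthesis and desaturation, 3 rose and 0 fell (3.4% and 6.42% of all genes did), with a median of 0.85. SCD, the desaturase that turns palmitoyl-CoA and stearoyl-CoA into monounsaturated forms, had 222, 214, 215 and 213 FPKM in KO 48 h libraries and 98.7, 112, 104 and 94.2 FPKM in KO 0 h libraries. The 4 libraries of each group lay close together and apart from the others, and SCD rose by 1.08 ± 0.15 (adjusted p = 2.48e-05). INSIG2, a gene related to INSIG1, rose by 1.80 ± 0.43 (adjusted p = 0.00659). ACSS2, which makes cytosolic acetyl-CoA, rose by 2.11 ± 0.61 (adjusted p = 0.0272). The call of ACSS2 was lost in 6 of 8 fits with 1 library left out (highest adjusted p = 0.0916, without KO 0 h replicate 2). FASN, the synthase, had 15.4, 25.4, 12.5 and 16.8 FPKM in KO 48 h libraries and 28.4, 30.8, 19.3 and 21.6 FPKM in KO 0 h libraries. FASN changed by -0.53 ± 0.35 (adjusted p = 0.417). FADS1, the delta-5 desaturase (opposite FADS2), changed by -0.46 ± 0.17 (adjusted p = 0.0994). The groups of FASN overlapped and neither gene passed. With median-of-ratios rescaling 5 rose, and with scaling over protein-coding genes without overlap 1 fell.

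Of 27 tested genes of fatty acid activation and oxidation, 4 rose and 1 fell (3.4% and 6.42% of all genes did), with a median of 0.21. ACSL1, which activates long-chain fatty acids to acyl-CoA, had 9.67, 6.42, 9.44 and 6.25 FPKM in KO 48 h libraries and 0.978, 0, 1.61 and 0 FPKM in KO 0 h libraries. ACSL1 rose by 3.14 ± 0.49 (adjusted p = 0.000111). CPT1A, which admits acyl groups to mitochondria, had 6.94, 4.13, 1.89 and 8.70 FPKM in KO 48 h libraries and 0.894, 0.788, 1.01 and 0 FPKM in KO 0 h libraries. CPT1A rose by 2.28 ± 0.54 (adjusted p = 0.00628). ETFA, part of the flavoprotein that takes electrons from acyl-CoA dehydrogenases, had 49.4, 45.7, 46.98 and 39.4 FPKM in KO 48 h libraries and 8.05, 16.5, 27.2 and 24.4 FPKM in KO 0 h libraries. ETFA rose by 1.36 ± 0.32 (adjusted p = 0.00671). ACSL1 and CPT1A lay between 0 and 1.61 FPKM at 0 h, and no group overlapped its counterpart. ETFDH, which passes those electrons to ubiquinone, fell, with 87.8, 74.4, 128 and 96.9 FPKM in KO 48 h libraries and 203, 211, 261 and 218 FPKM in KO 0 h libraries. ETFDH changed by -1.23 ± 0.17 (adjusted p = 1.58e-05). The remaining riser was ACSL3, another acyl-CoA synthetase (1.27 ± 0.31 (adjusted p = 0.00902)). In a fit of the KO 48 h and KO 0 h libraries alone 1 of the list rose. CPT1A, ETFA and ACSL3 lost their calls with only the KO 48 h and KO 0 h libraries. The exons of ETFDH (PPID) and ACSL3 (AC013476.1) overlap those of the opposite-strand gene given in brackets.

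PLIN2, the coat protein of lipid droplets in hepatocytes, had 20.6, 33.1, 31.7 and 29.8 FPKM in KO 48 h libraries and 6.43, 5.72, 6.66 and 5.03 FPKM in KO 0 h libraries, without overlap. PLIN2 rose by 2.17 ± 0.42 (adjusted p = 0.00113). CIDEB, a droplet and lipoprotein protein of the liver, had 263, 211, 184 and 212 FPKM in KO 48 h libraries and 375, 326, 356 and 449 FPKM in KO 0 h libraries without overlap. CIDEB fell by 0.79 on the log2 scale (SE 0.13, adjusted p = 0.000126). They were the 1 higher and 1 lower member among 16 tested genes of lipid droplets and lipolysis (median 0.16), and with ACSL1 and CPT1A PLIN2 made up the 3 of 12 tested PPAR targets that rose (0 fell, median 0.43). Over all genes 3.4% rose and 6.42% fell, so counts of 1 in the lists of this paragraph lie near those shares. Without KO 0 h replicate 0 the droplet list had 2 higher and a median of -0.08, and without KO 48 h replicate 3 its median was -0.02. ABHD12, another hydrolase of monoacylglycerols and lysophospholipids, had 40.2, 80.8, 58.3 and 59.7 FPKM in KO 48 h libraries and 47.97, 37.97, 28.4 and 6.38 FPKM in KO 0 h libraries, in overlapping groups. ABHD12 changed by 1.25 ± 0.44 (adjusted p = 0.076). MGLL, the main monoacylglycerol lipase, stayed between 0 and 0.818 FPKM at 48 h and between 0.544 and 6.88 FPKM at 0 h (adjusted p = 0.376). Of 19 genes of glycerolipid synthesis 1 rose, the acyltransferase GPAT3 (2.32 ± 0.63), and 0 fell (median -0.26); its call was lost without KO 0 h replicate 3 (adjusted p = 0.079), and the median of the list was 0.01 without KO 48 h replicate 2. DGAT1 and DGAT2, the enzymes of the last step to triglyceride, had adjusted p of 0.504 and 0.604. ASAH1, the lysosomal ceramidase, had 130.3, 133, 109.8 and 125 FPKM in KO 48 h libraries and 36.9, 44.8, 48.7 and 49.2 FPKM in KO 0 h libraries. ASAH1 rose by 1.47 ± 0.25 (adjusted p = 0.000339), as the 1 called gene of 23 in sphingolipid and ceramide metabolism (0 fell, median 0.83; 2 rose without KO 0 h replicate 0). LPCAT3, which puts polyunsaturated chains into phospholipids, had 316, 332, 374 and 265 FPKM in KO 48 h libraries and 622, 491, 584 and 495 FPKM in KO 0 h libraries. LPCAT3 fell (-0.77 ± 0.13, adjusted p = 0.000184). CHKB, a choline kinase, had 2.39, 3.83, 6.67 and 2.03 FPKM at 48 h and was listed at 0 in every library at 0 h. Its call was lost in all 8 fits with 1 library left out (highest adjusted p = 0.112, without KO 48 h replicate 2). They were the 1 lower and 1 higher of 19 phospholipid genes, with neither called after quantile normalization, when the droplet list had 2 higher and 0 lower. The phospholipid list's median of 0.05 lay between -0.07 and 0.25 with 1 library left out. CIDEB, LPCAT3 and CHKB lost their calls after quantile normalization. GPAT3 lost its call with only the KO 48 h and KO 0 h libraries. The exons of CIDEB (NOP9), DGAT1 (HSF1), DGAT2 (AP003031.1), ASAH1 (AC124242.1) and LPCAT3 (EMG1) overlap those of the opposite-strand gene given in brackets.

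Of 26 tested targets of NRF2, the factor that answers oxidative and electrophilic stress, 9 rose and 0 fell (3.4% and 6.42% of all genes did). Their median was 1.04, and 8 to 10 rose with 1 library left out. The list had 1 lower without KO 48 h replicate 0 or with only the KO 48 h and KO 0 h libraries. After quantile normalization 14 rose. TXNRD1, the cytosolic thioredoxin reductase, had 101, 101, 115 and 96.1 FPKM in KO 48 h libraries and 49.04, 31.1, 41.2 and 49.5 FPKM in KO 0 h libraries, without overlap. TXNRD1 rose by 1.28 ± 0.20 (adjusted p = 0.000118). GCLC, the catalytic subunit of the first enzyme of glutathione synthesis, had 50.6, 62.4, 38.6 and 37.5 FPKM in KO 48 h libraries and 21.6, 8.82, 5.45 and 3.31 FPKM in KO 0 h libraries. GCLC rose by 2.50 ± 0.46 (adjusted p = 0.000629). NQO1, a quinone reductase, had 15.3, 10.2, 10.9 and 18.2 FPKM in KO 48 h libraries and 2.99, 1.59, 3.07 and 3.004 FPKM in KO 0 h libraries. NQO1 rose by 2.16 ± 0.40 (adjusted p = 0.00063). The groups lay apart in all of these. The exons of GCLC (AL033397.2) and NQO1 (AC092115.2) overlap those of the opposite-strand gene given in brackets.

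The others that rose were thioredoxin itself, TXN (1.11 ± 0.24), the cystine carrier SLC7A11, the pentose phosphate enzyme PGD (1.19 ± 0.26), the aldo-keto reductase AKR1C2 (1.83 ± 0.46), the exporter ABCC2 (1.21 ± 0.37) and FTH1, the heavy chain of ferritin (1.34 ± 0.18, adjusted p = 1.23e-05). FTH1 had 1251, 1114, 1420 and 1377 FPKM in KO 48 h libraries and 599, 514, 418 and 515 FPKM in KO 0 h libraries, whereas FTL, the light chain, had 279, 232, 190.2 and 241 FPKM in KO 48 h libraries and 189, 166, 218 and 219 FPKM in KO 0 h libraries. FTL changed by 0.25 ± 0.19 (adjusted p = 0.504). HMOX1, the inducible heme oxygenase and another NRF2 target, was at 2.03, 0, 0 and 0 FPKM at 48 h and 6.46, 3.501, 3.998 and 3.82 FPKM at 0 h and did not pass (adjusted p = 0.0849). Of 13 genes of iron and metal handling 3 rose and 0 fell (median 0.29; 1 fell without KO 48 h replicate 0 or with only the KO 48 h and KO 0 h libraries): FTH1, the transferrin receptor TFRC (1.25 ± 0.32) and the iron exporter SLC40A1 (2.89 ± 0.91). TFRC had 26.3, 28.98, 17.2 and 25.2 FPKM in KO 48 h libraries and 11.5, 7.27, 10.97 and 9.89 FPKM in KO 0 h libraries. ABCC2 lost its call in 4 of 8 fits without 1 library (highest adjusted p = 0.098, without KO 0 h replicate 2). SLC40A1 lost its call in 8 of 8 fits without 1 library (highest adjusted p = 0.113, without KO 0 h replicate 2). SLC40A1 lost its call after quantile normalization and without a variance trend. ABCC2 and SLC40A1 lost their calls with scaling over protein-coding genes without overlap. PGD and ABCC2 lost their calls with only the KO 48 h and KO 0 h libraries. The exons of SLC7A11 (SLC7A11-AS1) and FTH1 (BEST1) overlap those of the opposite-strand gene given in brackets.

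Of 27 tested hydrolases and membrane proteins of the lysosome, 9 rose and 0 fell (3.4% and 6.42% of all genes did), with a median of 1.13. The number higher was 6 without KO 48 h replicate 0, 11 with median-of-ratios rescaling and 12 with quantile normalization. CTSL, a cysteine protease, had 66.5, 61.4, 108 and 78.2 FPKM in KO 48 h libraries and 16.1, 31.6, 36.4 and 21.9 FPKM in KO 0 h libraries. CTSL rose by 1.58 ± 0.25 (adjusted p = 0.000111). NEU1, the lysosomal sialidase, had 31.00, 17.3, 27.1 and 25.2 FPKM in KO 48 h libraries and 5.68, 2.499, 2.88 and 10.04 FPKM in KO 0 h libraries. NEU1 rose by 2.31 ± 0.39 (adjusted p = 0.000253). HEXA, a subunit of hexosaminidase A, had 30.1, 32.1, 21.7 and 42.7 FPKM in KO 48 h libraries and 8.59, 9.79, 7.15 and 8.76 FPKM in KO 0 h libraries. HEXA rose by 1.79 ± 0.31 (adjusted p = 0.000265). All libraries at 48 h exceeded all at 0 h for CTSL, NEU1 and HEXA. TPP1, a peptidase (8.45, 9.47, 16.7 and 11.01 FPKM in KO 48 h libraries and 0.609, 1.19, 0.602 and 0 FPKM in KO 0 h libraries), rose by 3.52 ± 0.53 (adjusted p = 7.33e-05), and ASAH1, NPC2, which carries cholesterol out of the lysosome (3.95 ± 1.12), LAMP2, a membrane protein (1.71 ± 0.44), and GLA, an alpha-galactosidase (1.70 ± 0.42), rose as well. In 19 autophagy genes 2 rose and 0 fell (median 0.18; 1 fell with scaling over protein-coding genes without overlap). They were GABARAP, a protein of the autophagosome membrane, and SQSTM1, the cargo receptor p62. GABARAP had 63.9, 64.2, 42.9 and 69.6 FPKM in KO 48 h libraries and 7.67, 4.39, 18.02 and 3.23 FPKM in KO 0 h libraries and rose by 3.04 ± 0.44 (adjusted p = 4.14e-05). SQSTM1 had 167, 183, 169.6 and 189.7 FPKM in KO 48 h libraries and 108, 101, 65.8 and 138 FPKM in KO 0 h libraries and rose by 0.82 ± 0.18 (adjusted p = 0.00291). NPC2 lost its call in 5 of 8 fits without 1 library (highest adjusted p = 0.0951, without KO 0 h replicate 3). LAMP2 lost its call in 1 of 8 fits without 1 library (highest adjusted p = 0.0527, without KO 48 h replicate 0). NPC2 changed by 4.57 without KO 0 h replicate 2 and 4.59 without KO 48 h replicate 3, over 1.5-fold from the value with all libraries. NPC2, LAMP2 and SQSTM1 lost their calls with only the KO 48 h and KO 0 h libraries. The exons of HEXA (AC009690.2), TPP1 (AC091564.6), ASAH1 (AC124242.1), NPC2 (ISCA2), GABARAP (AC120057.3) and SQSTM1 (MRNIP) overlap those of the opposite-strand gene given in brackets.

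Markers of hepatocytes were present in all 8 libraries. The 10 markers summed to 1086 to 1266 FPKM at 48 h and 929 to 995 FPKM at 0 h, none was at 0, and 2 rose (TTR and TF) and 1 fell (APOA1); after quantile normalization 5 rose. APOA2, an apolipoprotein of HDL, had 521, 573, 646 and 662 FPKM in KO 48 h libraries and 140.2, 118, 163 and 95.3 FPKM in KO 0 h libraries. APOA2 rose by 2.24 ± 0.20 (adjusted p = 5.47e-08). APOA1, the main apolipoprotein of HDL, fell, with 30.00, 27.8, 34.9 and 34.7 FPKM in KO 48 h libraries and 86.02, 60.3, 77.7 and 81.3 FPKM in KO 0 h libraries. APOA1 changed by -1.24 ± 0.19 (adjusted p = 0.000102). Neither pair of groups overlapped, and APOH (0.89 ± 0.26), a phospholipid-binding plasma protein, made the lipoprotein list 2 higher and 1 lower of 21 (median 0.29); it was 1 higher and 2 lower without KO 0 h replicate 0 or with scaling over protein-coding genes without overlap, and 2 lower without KO 48 h replicate 3. Of 22 secreted proteins of hepatocytes 4 rose and 0 fell (median 0.37; 9 and 0 after quantile normalization, while 1 fell without KO 0 h replicate 1 or with scaling over protein-coding genes without overlap). Over all genes 3.4% rose and 6.42% fell. The risers among these secreted proteins included AMBP, the precursor of bikunin, transferrin (TF) and transthyretin (TTR). AMBP had 259, 254, 252 and 279 FPKM in KO 48 h libraries and 93.5, 86.2, 137 and 128 FPKM in KO 0 h libraries and rose by 1.25 ± 0.15 (adjusted p = 4.47e-06). TF had 151, 159, 147 and 131 FPKM in KO 48 h libraries and 84.9, 75.3, 88.1 and 81.5 FPKM in KO 0 h libraries and rose by 0.83 ± 0.16 (adjusted p = 0.000735). TTR had 86.8, 61.7, 88.8 and 69.7 FPKM in KO 48 h libraries and 37.8, 26.8, 26.6 and 17.1 FPKM in KO 0 h libraries and rose by 1.52 ± 0.36 (adjusted p = 0.00689). All libraries at 48 h exceeded those at 0 h for these genes. ALB, albumin, had 142, 203, 184 and 156 FPKM in KO 48 h libraries and 65.7, 115, 140.0 and 102 FPKM in KO 0 h libraries. The groups did not overlap, but 142 and 140.0 FPKM were their nearest values and it did not pass (0.73 ± 0.24, adjusted p = 0.0547). SERPINA1, alpha-1 antitrypsin, changed by 0.13 ± 0.13 (adjusted p = 0.633) and AFP, alpha-fetoprotein, by 0.19 ± 0.18 (adjusted p = 0.616). Of 14 hepatocyte transcription factors 0 rose and 1 fell (median -0.52), the nuclear receptor NR1I3 (CAR), with 202, 229, 179 and 186 FPKM in KO 48 h libraries and 703, 666, 631 and 696 FPKM in KO 0 h libraries. NR1I3 changed by -1.76 ± 0.19 (adjusted p = 7.85e-07); without KO 0 h replicate 0 or 2 or KO 48 h replicate 1 the number that fell was 2. The call of APOH was lost in 4 of 8 fits with 1 library left out (highest adjusted p = 0.0893, without KO 0 h replicate 2). APOH lost its call with scaling over protein-coding genes without overlap and without a variance trend. The exons of APOA1 (APOA1-AS) and NR1I3 (TOMM40L) overlap those of the opposite-strand gene given in brackets.

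Of 8 tested markers of biliary or progenitor cells, 3 rose and 0 fell (3.4% and 6.42% of all genes did), with a median of 1.04. The 10 on the list summed to 340 to 577 FPKM at 48 h and 93.7 to 187 FPKM at 0 h. KRT7 was at 0 in both groups and KRT19 at 0 h, and the share of such cells was not tested. CD24, a surface glycoprotein, had 469, 268, 456 and 435 FPKM in KO 48 h libraries and 139, 57.7, 135 and 93.1 FPKM in KO 0 h libraries. CD24 rose by 1.98 ± 0.27 (adjusted p = 1.84e-05). SOX4, a transcription factor, had 21.3, 18.5, 20.5 and 21.2 FPKM in KO 48 h libraries and 7.17, 5.51, 6.58 and 9.04 FPKM in KO 0 h libraries. SOX4 rose by 1.48 ± 0.30 (adjusted p = 0.00182), and SPP1, osteopontin, rose by 2.58 ± 0.80 (adjusted p = 0.0418), lost in 6 of 8 fits with 1 library left out (highest adjusted p = 0.137, without KO 0 h replicate 1). SOX9 changed by 0.43 ± 0.26 (adjusted p = 0.351). Stellate markers summed to 5.00 to 9.26 FPKM at 48 h and 7.28 to 12.3 FPKM at 0 h and endothelial markers to 4.33 to 19.9 FPKM at 48 h and 14.7 to 27.0 FPKM at 0 h, with 0 of 3 tested called in either list; 3 and 8 stellate markers and 7 and 7 endothelial markers of 10 were at 0 at 48 h and at 0 h. Of 5 tested immune markers 1 was called, LYZ, lysozyme. It had 282, 217, 329 and 301 FPKM in KO 48 h libraries and 165, 183, 144 and 167 FPKM in KO 0 h libraries. LYZ rose by 0.76 ± 0.20 (adjusted p = 0.0158), a call lost without KO 48 h replicate 2 (adjusted p = 0.0576) and also without KO 0 h replicate 2. At 0 were 4 at 48 h and 6 at 0 h of the 10 immune markers, PTPRC among them at 0 h. SPP1 lost its call with scaling over protein-coding genes without overlap. SPP1 and LYZ lost their calls without a variance trend. The exons of KRT7 (KRT7-AS), SOX4 (AL512380.2) and LYZ (AC020656.1) overlap those of the opposite-strand gene given in brackets.

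Of 17 tested growth factor and immediate early genes, 4 rose and 0 fell (3.4% and 6.42% of all genes did), with a median of 0.84. AREG, a ligand of the EGF receptor, had 32.5, 34.4, 34.3 and 35.5 FPKM in KO 48 h libraries and 4.18, 0, 0 and 0 FPKM in KO 0 h libraries. AREG rose by 5.31 ± 0.65 (adjusted p = 4.27e-06). KLF6, an early transcription factor, had 18.1, 14.3, 15.4 and 17.9 FPKM in KO 48 h libraries and 4.76, 3.65, 6.30 and 3.82 FPKM in KO 0 h libraries. KLF6 rose by 1.74 ± 0.42 (adjusted p = 0.00756). KLF4, a related factor, had 8.75, 16.7, 12.3 and 12.4 FPKM at 48 h and was listed at 0 in every library at 0 h. DUSP1, a phosphatase of MAP kinases, had 2.18, 4.20, 4.32 and 4.08 FPKM at 48 h and was likewise at 0 before the acid. Of 17 NF-kB targets and chemokines 3 rose and 0 fell (median 1.01; 5 rose with median-of-ratios rescaling or after quantile normalization, and 1 fell without KO 0 h replicate 0 or KO 48 h replicate 0): the cytokine IL32, the neutrophil chemokine CXCL5 and IL1B, interleukin 1 beta. IL32 had 17.2, 20.8, 14.4 and 18.9 FPKM in KO 48 h libraries and 0, 7.15, 0 and 0 FPKM in KO 0 h libraries and rose by 4.20 ± 0.84 (adjusted p = 0.00151). CXCL5 had 23.2, 26.7, 15.9 and 25.9 FPKM in KO 48 h libraries and 9.83, 10.2, 6.85 and 12.5 FPKM in KO 0 h libraries and rose by 1.18 ± 0.28 (adjusted p = 0.0071). IL1B had 7.51, 2.04, 4.15 and 3.55 FPKM at 48 h and stood at 0 in each library at 0 h. CXCL8 and CXCL1 did not pass (adjusted p = 0.448 and 0.364). In 19 apoptosis genes 2 rose and 0 fell (median 0.67), both BH3-only proteins: PMAIP1 and BMF. PMAIP1 had 7.24, 12.1, 10.2 and 6.30 FPKM in KO 48 h libraries and 2.20, 3.44, 3.77 and 2.20 FPKM in KO 0 h libraries. PMAIP1 rose by 1.47 ± 0.39 (adjusted p = 0.0163), a call lost without KO 48 h replicate 1 (adjusted p = 0.0566, 1 gene of the list then higher). BMF rose by 2.56 ± 0.58 (adjusted p = 0.00454). AREG changed by 6.12 without KO 0 h replicate 0, over 1.5-fold from the value with all libraries. IL32 changed by 5.18 without KO 0 h replicate 1, over 1.5-fold from the value with all libraries. The exons of BMF (BMF-AS1) overlap those of the opposite-strand gene given in brackets.

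Among 23 genes of glycolysis and hypoxia 4 rose and 1 fell (3.4% and 6.42% of all genes did). The median of 0.09 was -0.08 with values scaled over protein-coding genes without overlap, where 2 rose, and -0.02 without KO 0 h replicate 0. NDRG1, a hypoxia-responsive gene, had 17.2, 19.2, 16.9 and 11.03 FPKM in KO 48 h libraries and 0, 2.01, 0 and 0 FPKM in KO 0 h libraries. NDRG1 rose by 4.44 ± 0.58 (adjusted p = 1.02e-05). ENO1, the glycolytic enolase, had 95.4, 116, 117 and 152 FPKM in KO 48 h libraries and 84.4, 63.9, 66.2 and 73.1 FPKM in KO 0 h libraries. ENO1 rose by 0.72 ± 0.19 (adjusted p = 0.0151), and TPI1, triosephosphate isomerase, rose by 0.79 ± 0.22. ENO2, another enolase, had 4.80, 8.31, 6.35 and 8.83 FPKM at 48 h and was listed at 0 in every library at 0 h. ANKRD37, a hypoxia target, fell (-0.85 ± 0.23). Of 12 genes of gluconeogenesis and glycogen 2 rose and 0 fell (median 0.66), the mitochondrial PCK2 (1.34 ± 0.35) and IGFBP1, which binds insulin-like growth factors and had 8.07, 22.7, 7.03 and 12.8 FPKM at 48 h and 0 in each library at 0 h. Of 19 genes of extracellular matrix 1 rose, fibronectin, FN1 (0.58 ± 0.17), and 2 fell, the basement membrane genes COL18A1 (-1.58 ± 0.21) and LAMA5 (-0.77 ± 0.20), with a median of 0.58; 3 rose and 1 fell with median-of-ratios rescaling, and without KO 48 h replicate 3 2 rose and 1 fell. ENO1 lost its call in 1 of 8 fits without 1 library (highest adjusted p = 0.067, without KO 48 h replicate 3). TPI1 lost its call in 3 of 8 fits without 1 library (highest adjusted p = 0.0826, without KO 0 h replicate 3). PCK2 lost its call in 1 of 8 fits without 1 library (highest adjusted p = 0.0576, without KO 0 h replicate 2). FN1 lost its call in 5 of 8 fits without 1 library (highest adjusted p = 0.0995, without KO 48 h replicate 0). LAMA5 lost its call in 1 of 8 fits without 1 library (highest adjusted p = 0.0507, without KO 48 h replicate 3). LAMA5 lost its call with median-of-ratios rescaling. ANKRD37 and LAMA5 lost their calls after quantile normalization. ENO1, TPI1 and FN1 lost their calls with scaling over protein-coding genes without overlap. TPI1 and PCK2 lost their calls with only the KO 48 h and KO 0 h libraries. ENO1, TPI1, FN1 and LAMA5 lost their calls without a variance trend. The exons of ENO1 (ENO1-AS1), TPI1 (SPSB2), ANKRD37 (UFSP2), COL18A1 (SLC19A1) and LAMA5 (ADRM1) overlap those of the opposite-strand gene given in brackets.

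**Figure D3:**
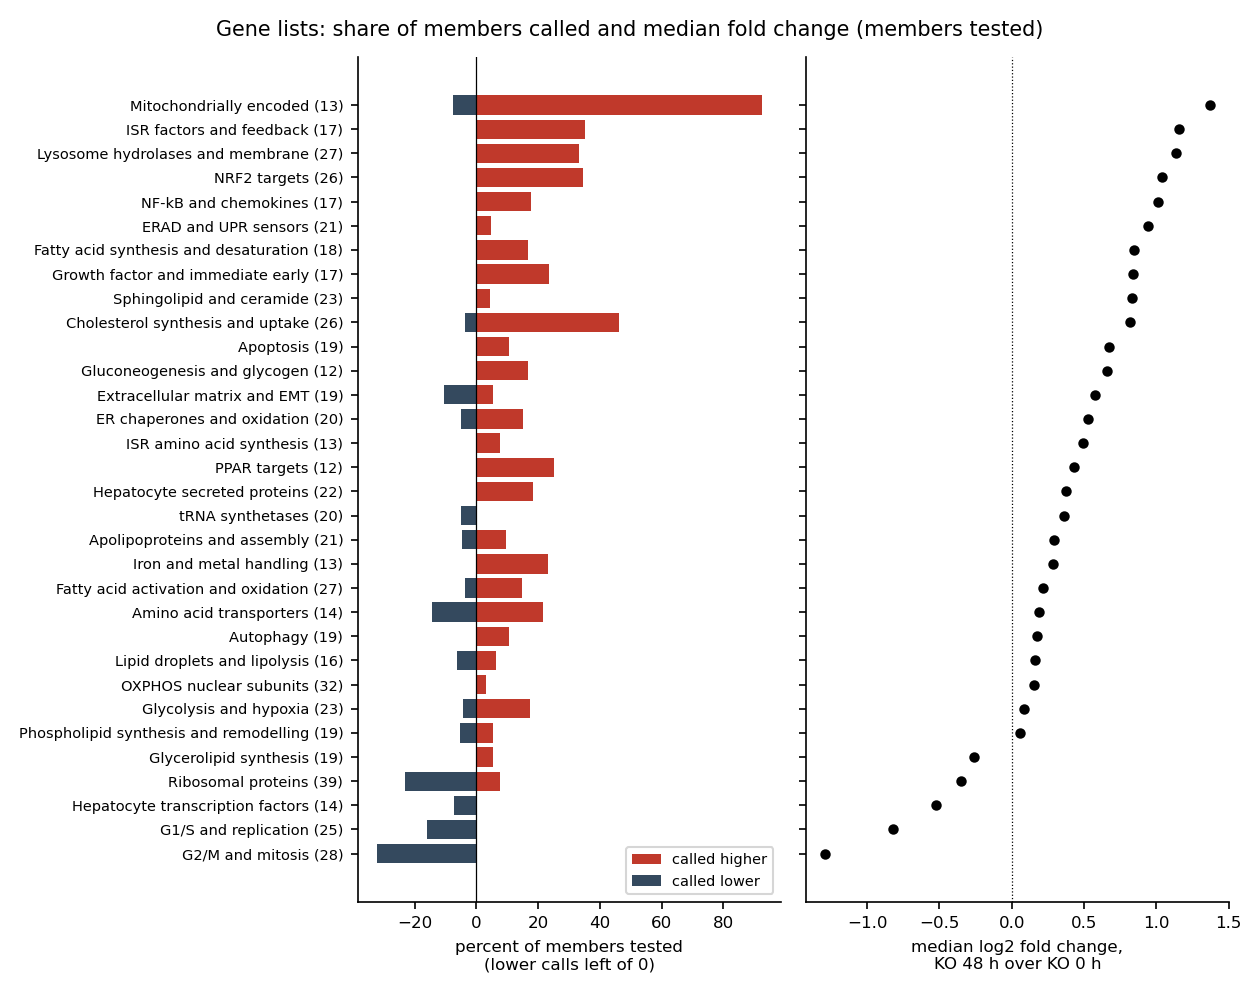
For each of 32 gene lists, the percentage of tested members called higher and lower in KO cells at 48 h against 0 h (left) and the median log2 fold change of the tested members (right), with called-lower shares drawn to the left of 0 and the number tested in brackets. Over all 17252 genes the shares were 3.4% and 6.42% and the median 0. Among protein-coding genes they were 4.85% and 1.9% (median 0.29) without an opposite-strand overlap and 3.27% and 9.82% (median -0.05) with such an overlap. The mitochondrially encoded list has the highest median (1.37) and the G2/M list the lowest (-1.29).

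Of 28 tested genes of G2/M and mitosis, 0 rose and 9 fell (6.42% of all genes fell), with a median of -1.29, and of 25 genes of G1/S and replication, 0 rose and 4 fell (median -0.82). HMGB2, a chromatin protein of dividing cells, had 16.8, 17.9, 19.9 and 20.8 FPKM in KO 48 h libraries and 106, 68.01, 104 and 93.4 FPKM in KO 0 h libraries, far apart. HMGB2 fell by 2.25 on the log2 scale (SE 0.20, adjusted p = 5.28e-08). TPX2, which activates Aurora A on the spindle, had 14.7, 8.44, 8.04 and 9.92 FPKM in KO 48 h libraries and 27.99, 32.8, 16.8 and 21.6 FPKM in KO 0 h libraries. TPX2 changed by -1.23 ± 0.28 (adjusted p = 0.00452). CDC20, an activator of the anaphase-promoting complex, had 2.30, 3.33, 0 and 4.28 FPKM in KO 48 h libraries and 23.6, 10.2, 19.4 and 8.55 FPKM in KO 0 h libraries. CDC20 changed by -2.71 ± 0.66 (adjusted p = 0.00856). CENPE, a kinetochore motor, had 0.286, 2.85, 0.34 and 0.667 FPKM in KO 48 h libraries and 8.16, 3.001, 5.40 and 5.69 FPKM in KO 0 h libraries. CENPE changed by -2.19 ± 0.55 (adjusted p = 0.0107), with its highest library at 48 h just below its lowest at 0 h. The other 5 that fell were cyclin genes CCNB1 (-1.19 ± 0.32) and CCNA2 (-0.99 ± 0.32), TOP2A, which untangles DNA (-1.91 ± 0.53), the motor KIF20A (-2.56 ± 0.73) and the tubulin TUBB4B (-0.90 ± 0.26). CKS2 and PRC1 did not pass, with changes of 0.45 ± 0.32 (adjusted p = 0.459) and -1.29 ± 0.52 (adjusted p = 0.134). When 1 library was left out, 6 to 8 G2/M genes fell, with 6 without KO 0 h replicate 0; 4 fell in a fit of the KO 48 h and KO 0 h libraries alone and 12 with scaling over protein-coding genes without overlap. CCNB1 lost its call in 2 of 8 fits without 1 library (highest adjusted p = 0.0675, without KO 0 h replicate 3). CCNA2 lost its call in 6 of 8 fits without 1 library (highest adjusted p = 0.141, without KO 48 h replicate 1). TOP2A lost its call in 5 of 8 fits without 1 library (highest adjusted p = 0.0823, without KO 0 h replicate 0). KIF20A lost its call in 5 of 8 fits without 1 library (highest adjusted p = 0.0991, without KO 48 h replicate 0). TUBB4B lost its call in 4 of 8 fits without 1 library (highest adjusted p = 0.0965, without KO 48 h replicate 0). CDC20 changed by -1.98 without KO 48 h replicate 2, over 1.5-fold from the value with all libraries. KIF20A changed by -3.20 without KO 0 h replicate 2, over 1.5-fold from the value with all libraries. CCNA2 and TUBB4B lost their calls with median-of-ratios rescaling, after quantile normalization and without a variance trend. CDC20, CENPE, CCNB1, CCNA2, KIF20A and TUBB4B lost their calls with only the KO 48 h and KO 0 h libraries. The exons of CCNA2 (EXOSC9), KIF20A (BRD8), TUBB4B (FAM166A) and PRC1 (PRC1-AS1) overlap those of the opposite-strand gene given in brackets.

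Of the replication genes, MCM3, a subunit of the replicative helicase, had 6.26, 10.4, 11.1 and 11.5 FPKM in KO 48 h libraries and 48.2, 16.7, 39.7 and 29.9 FPKM in KO 0 h libraries, without overlap. MCM3 fell by 1.66 on the log2 scale (SE 0.35, adjusted p = 0.00237). MCM2, another subunit, changed by -2.09 ± 0.57 (adjusted p = 0.0183). RRM2, the regulated subunit of ribonucleotide reductase, had 12.97, 11.3, 10.03 and 12.00 FPKM in KO 48 h libraries and 29.6, 25.8, 37.5 and 22.4 FPKM in KO 0 h libraries. RRM2 changed by -1.26 ± 0.29 (adjusted p = 0.0056). TYMS, thymidylate synthase, had 40.7, 47.6, 40.2 and 41.2 FPKM in KO 48 h libraries and 93.8, 49.6, 69.7 and 113 FPKM in KO 0 h libraries. TYMS changed by -0.87 ± 0.22 (adjusted p = 0.0103). FEN1, a flap nuclease, and MCM7, a further helicase subunit, did not pass, with changes of -0.15 ± 0.20 (adjusted p = 0.725) and -0.82 ± 0.30 (adjusted p = 0.0987). When 1 library was left out, 3 to 6 of these genes fell. MCM2 lost its call in 4 of 8 such fits (highest adjusted p = 0.079, without KO 48 h replicate 1). TYMS lost its call after quantile normalization and with only the KO 48 h and KO 0 h libraries. The exons of TYMS (ENOSF1), FEN1 (TMEM258) and MCM7 (AP4M1) overlap those of the opposite-strand gene given in brackets.

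The promoter of MCM3 is shown because it holds the letters of an E2F element, TTTCCCGC in capitals, on the strand of the gene; the 250 bases end at its start (chr6:52284743-52284992, minus strand, RefSeq GRCh38.p14).
MCM3 promoter: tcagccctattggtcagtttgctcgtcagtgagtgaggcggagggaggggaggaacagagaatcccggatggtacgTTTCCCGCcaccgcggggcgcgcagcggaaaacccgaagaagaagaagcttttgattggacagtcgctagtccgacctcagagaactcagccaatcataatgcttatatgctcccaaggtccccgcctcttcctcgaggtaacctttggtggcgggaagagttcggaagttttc
The E2F element was in 1.63% of all promoters. Counted by gene, it was in 3.15% of those tested, 2.93% of those called higher and 3.55% of those called lower. The window of TYMS also held 1 match, on the other strand, and CDC20, CENPE, MCM2 and RRM2 had none in theirs.

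Rows on the opposite strand of cell division genes fell as well, several by more than the genes themselves. These rows were chosen after their values were seen. EXOSC9, opposite CCNA2, had 57.9, 65.7, 55.2 and 47.3 FPKM in KO 48 h libraries and 405, 267, 347 and 347 FPKM in KO 0 h libraries. EXOSC9 changed by -2.58 ± 0.19 where CCNA2 changed by -0.99 ± 0.32. PRC1-AS1, opposite PRC1, had 162, 188, 218 and 149.8 FPKM in KO 48 h libraries and 954, 943, 1048 and 1095 FPKM in KO 0 h libraries. PRC1-AS1 changed by -2.50 ± 0.19 where PRC1 changed by -1.29 ± 0.52. ENOSF1, opposite TYMS, had 33.05, 30.8, 27.8 and 20.5 FPKM in KO 48 h libraries and 116, 114, 124 and 123 FPKM in KO 0 h libraries. ENOSF1 changed by -2.09 ± 0.18 where TYMS changed by -0.87 ± 0.22. CCNA2 had 8.84, 6.61, 8.70 and 13.5 FPKM in KO 48 h libraries and 24.9, 20.2, 14.8 and 15.9 FPKM in KO 0 h libraries and PRC1 had 21.4, 21.6, 28.4 and 6.06 FPKM in KO 48 h libraries and 39.8, 48.9, 98.6 and 16.1 FPKM in KO 0 h libraries, so both lay far below the row opposite them at 0 h, while TYMS and ENOSF1 lay near each other. Rows that fell while their partner did not pass were ITFG2 (-2.40 ± 0.10, opposite FOXM1 at 0.34), LCORL (-2.91 ± 0.16, opposite NCAPG at 0.15), and ADCY3 (-2.08 ± 0.12, opposite CENPO at -0.59). FOXM1, NCAPG and CENPO encode a mitotic transcription factor, a condensin subunit and a centromere protein. Of the opposite-strand rows of G2/M genes 4 of 8 fell, and of those of G1/S genes 6 of 7, with 0 higher in either. Over all genes tested, 14% of antisense genes and 9.82% of protein-coding genes with an opposite-strand overlap fell.

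Rows that rose opposite well-known genes, named here after their values were seen, were VIM-AS1 opposite vimentin (1.79 ± 0.19), DDIT4-AS1 opposite the stress gene DDIT4 (0.74 ± 0.16), MRNIP opposite SQSTM1 (0.96 ± 0.16) and BMF-AS1 opposite BMF (5.25 ± 0.69, or 3.99 without KO 0 h replicate 2). Of their partners, SQSTM1 and BMF rose, whereas vimentin, VIM, changed by 1.40 ± 0.48 (adjusted p = 0.0683) and DDIT4 by 1.16 ± 0.47 (adjusted p = 0.137), which did not pass. The antisense rows with the highest values that were called all fell: AC011603.2, opposite the tubulin TUBA1B (-1.53 ± 0.09), AC006064.4, opposite GAPDH (-1.61 ± 0.14), AC020656.1, opposite LYZ (-0.50 ± 0.10), AC125611.3, opposite TUBA1C (-0.65 ± 0.10), AC093484.3, opposite UBB (-0.61 ± 0.10), and AL662797.1, opposite TUBB (-1.46 ± 0.13). AC011603.2 had 32303, 34460, 35704 and 32443 FPKM in KO 48 h libraries and 96402, 91386, 97895 and 104823 FPKM in KO 0 h libraries, and VIM-AS1 had 2777, 2974, 2652 and 3384 FPKM in KO 48 h libraries and 875, 908, 822 and 789 FPKM in KO 0 h libraries. After quantile normalization AC020656.1 was 0.25 and no longer called, and it lost its call with median-of-ratios rescaling, with only the KO 48 h and KO 0 h libraries and without a variance trend. AC093484.3 lost its call without a variance trend. Over 1570 tested pairs of an antisense row and a protein-coding gene the antisense row had the higher mean in 972 (61.9%). Of 293 antisense rows that fell, the partner had a negative change in 169 and fell in 24, while it rose in 9. Of 37 that rose, the partner had a positive change in 30 and rose in 6. Among all protein-coding genes with an opposite-strand overlap, 9.82% fell and 3.27% rose, with a median change of -0.05.

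**Figure D4:**
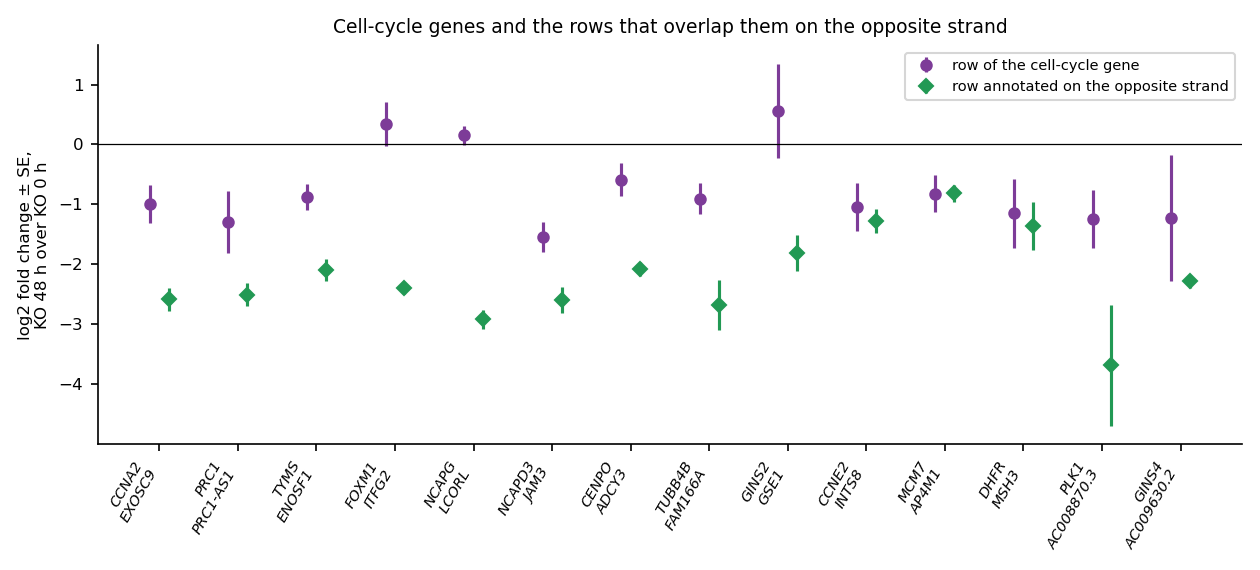
Log2 fold change ± SE (y axis) of 14 cell division genes (circles) and of the row on the opposite strand of each (diamonds), KO cells at 48 h against 0 h. The pairs were chosen after their values were seen, and every diamond is a row called lower. In the gene lists, 4 of 8 such rows of G2/M genes and 6 of 7 of G1/S genes fell. The diamond lies lower than the circle for EXOSC9 and CCNA2 (-2.58 and -0.99), PRC1-AS1 and PRC1 (-2.50 and -1.29) and ITFG2 and FOXM1 (-2.40 and 0.34).

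All but 1 of the mitochondrially encoded genes rose. Of 13, 12 rose, by 0.67 to 2.79 (median 1.37), and the remaining one, MT-CO1, stood at 0 in every library at 48 h and at 449, 469.6, 273 and 494 FPKM at 0 h. MT-CO1 encodes a catalytic subunit of cytochrome c oxidase. Its neighbours on the mitochondrial genome rose: MT-CO2 had 4604, 4773, 3852 and 4299 FPKM in KO 48 h libraries and 1347, 1085, 944 and 1448 FPKM in KO 0 h libraries (1.88 ± 0.13) and MT-ND2 had 1557, 1700, 1356 and 1320 FPKM in KO 48 h libraries and 343, 399.8, 262 and 365 FPKM in KO 0 h libraries (2.12 ± 0.15). MT-ND1, a subunit of complex I, had 1078, 1111, 998 and 861 FPKM in KO 48 h libraries and 169, 187, 158 and 271 FPKM in KO 0 h libraries. MT-ND1 changed by 2.39 ± 0.15 (adjusted p = 1.89e-10). An exact 0 in Cuffdiff output can be a failed estimate, so no fold is given for MT-CO1. In a fit of the KO 48 h and KO 0 h libraries alone 10 of the 13 rose, as MT-ND5 and MT-ND6 lost their calls. MT-ND5 also lost its call without a variance trend. Of 32 tested nuclear genes of oxidative phosphorylation 1 rose, NDUFB5 (2.78 ± 0.79), and 0 fell, where 3.4% of all genes rose and 6.42% fell. The list median of 0.16 was -0.02 with scaling over protein-coding genes without overlap and -0.03 without KO 0 h replicate 2. The call of NDUFB5 was lost in 5 of 8 fits with 1 library left out (highest adjusted p = 0.111, without KO 0 h replicate 0), and 2 genes of the list rose without KO 0 h replicate 1 or 3. NDUFB5 changed by 2.10 without KO 0 h replicate 0 and 3.59 without KO 0 h replicate 1 and 2.10 without KO 0 h replicate 2, over 1.5-fold from the value with all libraries. NDUFB5 lost its call with only the KO 48 h and KO 0 h libraries.

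Ribosomal protein genes had no direction that held across scalings: of 39 tested, 3 rose and 9 fell as deposited (median -0.35), 5 rose and 6 fell with median-of-ratios rescaling, and 9 rose and 2 fell after quantile normalization (median 0.08). Without KO 0 h replicate 0 the number that fell was 5. RPS2 had 66.7, 94.1, 72.4 and 107 FPKM in KO 48 h libraries and 191, 194, 192 and 191 FPKM in KO 0 h libraries. RPS15 had 103, 71.5, 66.7 and 53.9 FPKM in KO 48 h libraries and 175, 214, 218 and 190.2 FPKM in KO 0 h libraries. Neither pair of groups overlapped, and the changes were -1.20 ± 0.26 (adjusted p = 0.00348) and -1.46 ± 0.31 (adjusted p = 0.00244). RPL15 went the other way, with 191, 159, 157 and 191 FPKM in KO 48 h libraries and 113, 95.9, 95.98 and 74.5 FPKM in KO 0 h libraries. RPL15 changed by 0.89 ± 0.17 (adjusted p = 0.000733). RPL7 had 746, 774, 1101 and 797 FPKM in KO 48 h libraries and 739, 749.5, 1084 and 805 FPKM in KO 0 h libraries and did not pass (0.02 ± 0.19, adjusted p = 1). Ribosomal protein genes have many processed copies, which could share their reads. RPS2 lost its call after quantile normalization. The exons of RPL15 (NKIRAS1) overlap those of the opposite-strand gene given in brackets.

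Large changes also lay outside the lists. The genes named next are the 8 highest and 8 lowest folds among called protein-coding genes that changed at least 2-fold, without overlap between groups and with values above 0 in at least 3 of 4 libraries of the lower group. CYSRT1, which encodes a cysteine-rich tail protein (chromosome 9, 137224635 to 137226311), had 160.0, 151, 190.3 and 158 FPKM in KO 48 h libraries and 4.44, 7.35, 0 and 2.61 FPKM in KO 0 h libraries. CYSRT1 changed by 5.88 ± 0.68 (adjusted p = 2.16e-06). RNF224, a RING finger gene whose start lies just beyond the end of CYSRT1 on the same strand (chromosome 9, 137227271 to 137229638), had 173, 168, 172 and 157 FPKM in KO 48 h libraries and 6.23, 5.10, 5.76 and 5.32 FPKM in KO 0 h libraries. RNF224 changed by 4.78 ± 0.20 (adjusted p = 8.67e-14). SPINK1, a secreted trypsin inhibitor, had 356, 484, 594 and 472 FPKM in KO 48 h libraries and 6.26, 16.6, 71.7 and 24.6 FPKM in KO 0 h libraries. SPINK1 changed by 4.46 ± 1.11 (adjusted p = 0.00975). The others that rose most were LTBP1, which binds latent TGF-beta (4.08 ± 0.64), PTGR1 and HPGD, which inactivate prostaglandins (3.81 ± 0.74 and 3.67 ± 0.68), CKAP2L, a spindle protein (3.77 ± 0.50), and TPP1. CYSRT1 changed by 5.06 without KO 0 h replicate 2, over 1.5-fold from the value with all libraries. SPINK1 changed by 5.04 without KO 0 h replicate 2, over 1.5-fold from the value with all libraries. LTBP1 changed by 4.67 without KO 0 h replicate 2, over 1.5-fold from the value with all libraries. PTGR1 changed by 3.03 without KO 0 h replicate 2, over 1.5-fold from the value with all libraries. HPGD changed by 4.45 without KO 0 h replicate 0 and 2.74 without KO 0 h replicate 1, over 1.5-fold from the value with all libraries. HPGD lost its call with only the KO 48 h and KO 0 h libraries. The exons of CKAP2L (NT5DC4) and TPP1 (AC091564.6) overlap those of the opposite-strand gene given in brackets.

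The lowest fold belonged to PMCH, the precursor of melanin-concentrating hormone, which had 15.7, 5.88, 0 and 6.14 FPKM in KO 48 h libraries and 152, 93.7, 78.2 and 116 FPKM in KO 0 h libraries. PMCH changed by -4.64 ± 0.62 (adjusted p = 1.58e-05). HIST1H1C, a linker histone, had 24.95, 12.3, 4.70 and 3.85 FPKM in KO 48 h libraries and 110.4, 123, 139.8 and 93.3 FPKM in KO 0 h libraries. HIST1H1C changed by -3.64 ± 0.42 (adjusted p = 2.14e-06). RACGAP1, which organises the spindle midzone, had 0.846, 10.1, 3.39 and 8.76 FPKM in KO 48 h libraries and 44.6, 32.3, 53.3 and 27.2 FPKM in KO 0 h libraries. RACGAP1 changed by -3.02 ± 0.60 (adjusted p = 0.00136). The rest were SMIM19 (-4.17 ± 1.13), NAA10, an N-terminal acetyltransferase (-3.45 ± 0.97), DBNL, an actin-binding adaptor (-3.28 ± 0.66), KIF7, a kinesin of hedgehog signalling (-3.12 ± 0.60), and ZNF771 (-3.08 ± 0.60). Listed at 0 in all libraries of 1 group were also SPON2, a matrix protein, at 0 h (14.7, 13.5, 19.1 and 5.09 FPKM at 48 h), AC104109.3, at 48 h (17.7, 5.96, 59.9 and 19.6 FPKM at 0 h), and ID2, an inhibitor of bHLH factors, at 48 h (10.9, 5.52, 24.2 and 8.32 FPKM at 0 h). SMIM19 lost its call in 3 of 8 fits without 1 library (highest adjusted p = 0.0931, without KO 48 h replicate 1). NAA10 lost its call in 4 of 8 fits without 1 library (highest adjusted p = 0.0992, without KO 48 h replicate 3). AC104109.3 lost its call in 7 of 8 fits without 1 library (highest adjusted p = 0.105, without KO 0 h replicate 2). PMCH changed by -5.27 without KO 48 h replicate 0 and -3.60 without KO 48 h replicate 2, over 1.5-fold from the value with all libraries. RACGAP1 changed by -2.41 without KO 48 h replicate 0, over 1.5-fold from the value with all libraries. SMIM19 changed by -3.16 without KO 48 h replicate 1 and -4.92 without KO 48 h replicate 3, over 1.5-fold from the value with all libraries. SMIM19 lost its call with only the KO 48 h and KO 0 h libraries. The exons of PMCH (PARPBP), RACGAP1 (AQP6), SMIM19 (SLC20A2), DBNL (PGAM2), KIF7 (TICRR), ZNF771 (DCTPP1) and ID2 (ID2-AS1) overlap those of the opposite-strand gene given in brackets.

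The KO cells at 24 h and at 48 h are set against the same 4 libraries at 0 h, so their changes are given side by side. Changes against 0 h, first at 24 h and then at 48 h, were 3.05 and 2.22 for PPP1R15A, 4.65 and 4.72 for ATF3, 1.70 and 1.30 for HYOU1 and 1.03 and 0.37 for HSP90B1, which passed at 24 h and not at 48 h. Set directly against 24 h, the 48 h values of PPP1R15A, ATF3, HYOU1 and HSP90B1 did not pass (adjusted p = 0.287, 1, 0.757 and 0.122). The changes against 0 h were 0.21 and 2.24 for APOA2, 0.34 and 1.08 for SCD, 0.44 and 1.58 for CTSL and 0.41 and 1.25 for AMBP. In all 973 genes (5.64%) were called at 24 h against 0 h, 368 (2.13%) higher and 605 (3.51%) lower. Higher at 24 h were 7 ER chaperones (list median 0.58), 7 cholesterol genes (0.39), 4 NRF2 targets (0.39) and 2 lysosomal genes (0.45), and lower were 4 G2/M genes (-0.58).

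Between 24 h and 48 h the test was direct: limma called 89 genes (0.516%) between KO cells at 48 h and at 24 h, 19 (0.11%) higher and 70 (0.406%) lower. APOA2 had 521, 573, 646 and 662 FPKM at 48 h and 92.96, 172, 199.7 and 144 FPKM at 24 h, a difference of 2.03 ± 0.20 (adjusted p = 7.12e-06). SCD had 222, 214, 215 and 213 FPKM at 48 h and 119, 137, 128 and 134 FPKM at 24 h, a difference of 0.74 ± 0.15 (adjusted p = 0.0208), and AMBP differed by 0.84 ± 0.15 (adjusted p = 0.00848). MSMO1 (1.13 ± 0.23), CTSL (1.14 ± 0.25), transferrin (0.69 ± 0.16), RNF224 (1.29 ± 0.20) and the adhesion receptor ICAM1 (1.40 ± 0.27) were also higher at 48 h. AC011511.5 lies opposite ICAM1. ICAM1 and NTS, neurotensin (1.53 ± 0.32), differed from 24 h but not from 0 h (adjusted p = 0.134 and 0.367). Lower at 48 h than at 24 h were HMGB2 (-0.88 ± 0.20), HIST1H1C (-1.98 ± 0.42), ARHGAP11A, a RhoA regulator of dividing cells (-1.77 ± 0.32), PMCH (-2.93 ± 0.62) and SGPP2, a phosphatase of sphingosine 1-phosphate (-1.57 ± 0.25). Of the 89, 40 were protein-coding genes with an opposite-strand overlap, 27 antisense and 16 protein-coding without overlap. Of all 17252 genes tested, 5257, 2228 and 6786 were of these kinds. When 1 library was left out, 47 to 74 genes were called. There were 47 without KO 24 h replicate 0, 52 without KO 48 h replicate 3, 56 without KO 48 h replicate 2 and 57 without KO 48 h replicate 1.

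**Figure D5:**
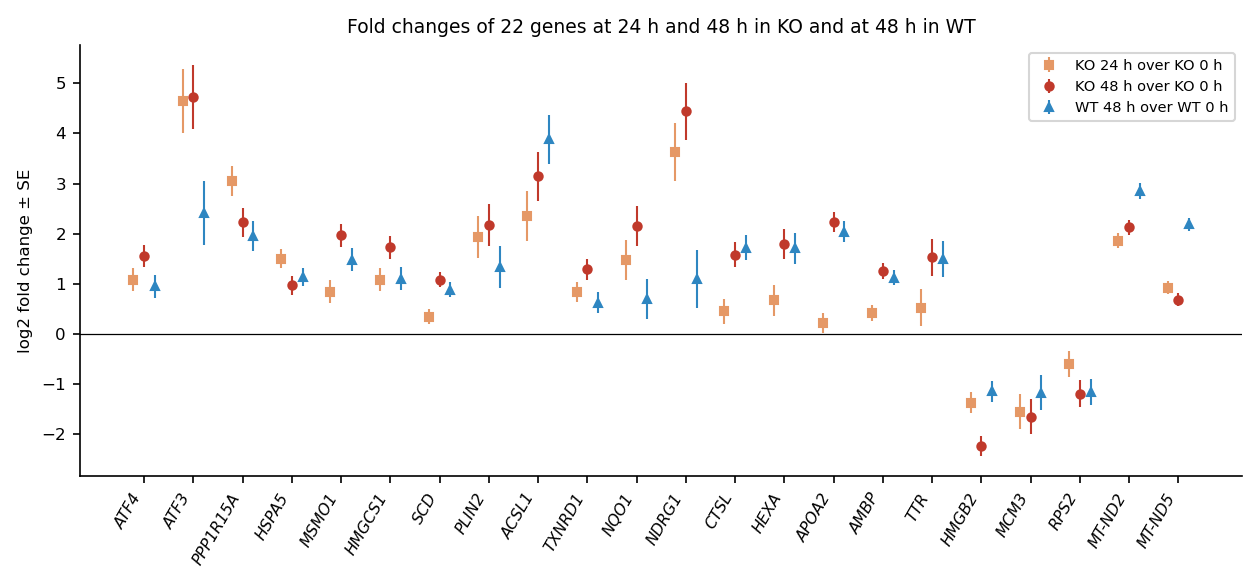
Log2 fold change ± SE against the 0 h cells of the same genotype (y axis) for 22 genes, in KO cells at 24 h, KO cells at 48 h and WT cells at 48 h. The KO points of APOA2, SCD, CTSL and AMBP lie higher at 48 h than at 24 h, and those of PPP1R15A and HSPA5 lie lower.

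WT cells over the same 48 h gave 1171 calls (6.79%), 443 (2.57%) higher and 728 (4.22%) lower. The WT and KO comparisons share no library, but both came from 1 fit with 1 estimate of the spread of each gene. Their calls are therefore not independent. With only the groups compared, 1439 genes were called in KO and 591 in WT cells. Of the KO genes that rose, 216 also rose in WT cells, which are 36.8% of the 587 in KO cells and 48.8% of the 443 in WT cells; of those that fell, 563 also fell in WT cells, 50.8% of 1108 and 77.3% of 728. In all, 544 of 587 and 1055 of 1108 had the sign of the KO change in WT cells whether or not they passed, and 3 and 1 were called the other way. KO and WT counts by list were 12 and 9 higher for cholesterol genes, 9 and 5 for NRF2 targets, 9 and 7 for lysosomal genes and 6 and 4 for factors of the integrated stress response, and 9 and 5 lower for G2/M genes. In other lists WT cells had more calls, with KO and WT counts of 3 and 4 higher for ER chaperones, 2 and 3 for apolipoproteins, 1 and 2 for glycerolipid genes and 2 and 4 for hepatocyte markers, and 9 and 10 lower for ribosomal proteins and 1 and 5 lower for glycolysis and hypoxia. The difference between these counts was not tested.

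A test of the difference itself, the KO change minus the WT change over 48 h, called 9 genes (0.0522%), 3 (0.0174%) higher and 6 (0.0348%) lower, while 1139 had an unadjusted p under 0.05. The 6 of them that belong to a gene list are all mitochondrially encoded. MT-ND5, a subunit of complex I, had 10067, 11344, 9162 and 8883 FPKM in KO libraries at 48 h and 6334, 5975, 4526 and 8390 FPKM in KO libraries at 0 h, against 16005, 14585, 13291 and 16922 FPKM in WT libraries at 48 h and 3158, 3212, 3683 and 3307 FPKM in WT libraries at 0 h. It was higher in KO than in WT libraries at 0 h and lower at 48 h, without overlap, and the KO change was smaller than the WT change by 1.51 on the log2 scale (SE 0.18, adjusted p = 0.000129). MT-ND3 and MT-ND4 had differences of -1.38 ± 0.21 (adjusted p = 0.00413) and -1.15 ± 0.21 (adjusted p = 0.0319). MT-CO3, MT-ATP6 and MT-ATP8, the 3 called higher, stood at 0 in each WT library at 48 h, so their calls rest on those zeros.

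ID2 was listed at 0 in every KO library at 48 h and at 10.9, 5.52, 24.2 and 8.32 FPKM in KO libraries at 0 h, against 10.6, 7.5002, 6.02 and 9.17 FPKM in WT libraries at 48 h and 7.83, 16.7, 5.78 and 7.79 FPKM in WT libraries at 0 h. Its KO libraries at 24 h had 5.13, 1.61, 1.56 and 6.30 FPKM. The other 2 rows called are antisense. AC009630.2, opposite the replication gene GINS4, had 262, 222, 242 and 191 FPKM in KO 48 h libraries and 1085, 1172, 1050 and 1144 FPKM in KO 0 h libraries, against 434, 440.4, 362 and 422 FPKM in WT libraries at 48 h and 1120, 1094, 896 and 989 FPKM in WT libraries at 0 h, a difference of -0.98 ± 0.15 (adjusted p = 0.00413). AL049830.3, opposite COCH, differed by -0.92 ± 0.17 (adjusted p = 0.0297). HMGB2, the cell division gene with the smallest p in KO cells, fell by 2.25 in KO and by 1.15 in WT cells, a difference that did not pass (-1.10 ± 0.29, adjusted p = 0.309). Leaving out genes with only zeros in some group, 3 differences were called, and 6 to 13 when 1 library was left out.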

How the data were processed

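Messenger RNA of 24 libraries, 4 in each of 6 groups, had been aligned and quantified with STAR, Cufflinks and Cuffdiff on GRCh38, per the submitters' processing notes, which give no versions, and the authors deposited FPKM per gene in 1 table. The values were used as deposited. Of 57979 genes, 17252 whose mean over the 24 libraries reached 0.5 FPKM were tested and 40727 lay below that floor. log2(FPKM + 0.5) was fitted with limma 3.58.1 (variance trend, 1 mean per group, R 4.3.3), and genes with a Benjamini-Hochberg adjusted p under 0.05 were called. The fit was also tested on simulated data, where most 2-fold changes were not called. A gene that did not pass may therefore still have changed. Measures of a library were compared by two-sided exact permutation tests. Overlaps of exons on opposite strands and gene classes came from the reference annotation; 98.9% of 58024 IDs matched.

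Depth was read from the steps of the smallest values. Replicate correlations over 3341 well-expressed genes ran from 0.816 to 0.882, and no pair of libraries was identical.

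Genes were named by rule: ABHD6; the 8 highest and 8 lowest folds among called protein-coding genes; the highest of those listed at 0 in all 4 libraries of 1 group; up to 4 called and 2 other members of each gene list; the 6 highest and lowest of the 48 h against 24 h and KO against WT tests; the 6 highest called antisense genes; and opposite-strand partners. Other called list members, further genes between 24 h and 48 h, and HSP90B1 and MGLL among others that were not called, were named after their values were seen. The gene lists and members were chosen with earlier results of these data known. Some list members are counted but not reported by name here. Alternatives were other pseudocounts, floors, scalings and models, genes without overlap only, a block for the replicate number, and fits without single libraries.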

Additional observations from a re-analysis of the deposited data

Results flagged for a closer look

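In 20 of the 250 groups of 4 libraries tested, 1 library stood far from the other 3, its gap to the nearest taking most of the range of the group (Dixon's test at the 95% level); chance gives about 1 in 20 groups, and no cause was tested. In the KO libraries at 0 h the high ones were ATF4 at 65.4 FPKM, ATF3 at 1.63 FPKM, NUPR1 at 11.6 FPKM, HERPUD1 at 15.9 FPKM, IL32 at 7.15 FPKM, AREG at 4.18 FPKM, BMF at 0.437 FPKM, NDRG1 at 2.01 FPKM and the antisense row AL662797.1 at 25322 FPKM. The low ones at 0 h were AFP at 172 FPKM and NQO1 at 1.59 FPKM. In the KO libraries at 48 h the high ones were HYOU1 at 45.9 FPKM, CENPE at 2.85 FPKM, TYMS at 47.6 FPKM, ARHGAP11A at 14.7 FPKM and RPL7 at 1101 FPKM. The low ones at 48 h were ABHD6 at 0, DUSP1 at 2.18 FPKM, CD24 at 268 FPKM and AC020656.1 at 34781 FPKM. Several of the genes at 0 h have 3 libraries listed at 0, where any value above 0 stands apart.

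The change over 48 h differed between KO and WT cells for 9 genes by limma's test of the difference. The adjusted p was 0.0297 for ID2, 0.000129 for MT-ND5, 0.00413 for MT-ND3, 0.0319 for MT-ND4, 0.00413 for AC009630.2 and 0.0297 for AL049830.3. It was 1.95e-19 for MT-ATP6, 2.44e-24 for MT-CO3 and 5.36e-21 for MT-ATP8, which stood at 0 in each WT library at 48 h. ID2, which stood at 0 in each KO library at 48 h, is the case in which the zeros lie in the KO cells.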

How the results depend on the processing

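The direction and call of most named genes held: of 6361 alternative values for 329 genes, 5924 kept both, 362 lost the call, 71 gained one and 4 reversed, all 4 after quantile normalization. These were AC020656.1 opposite LYZ (0.25), SLC7A11-AS1 (0.16), NPB opposite PCYT2 (0.0402) and AC011511.5 opposite ICAM4 and ICAM1 (0.55); the cause was not tested. The 1695 calls between KO 48 h and KO 0 h were 1696 with a pseudocount of 0.1 or 1, 1439 with only these groups, 1453 without a variance trend and 1347 to 1623 with 1 library left out. They were 1931 with scaling over protein-coding genes without overlap. With only genes without opposite-strand overlap, where fewer were tested, the calls were 388 for KO 48 h against KO 0 h, 7 for KO 48 h against KO 24 h, 234 for WT 48 h against WT 0 h and 199 for KO 24 h against KO 0 h. Without a variance trend they were 10 for KO 48 h against KO 24 h, 4 for the KO against WT difference, 750 for WT 48 h and 639 for KO 24 h. With only the groups compared they were 591 for WT 48 h and 617 for KO 24 h, and without genes listed at 0 in a group 3 for the KO against WT difference. With 1 library left out they ran from 47 to 74 for KO 48 h against KO 24 h, 6 to 13 for the KO against WT difference, 887 to 1073 for WT 48 h and 708 to 939 for KO 24 h. The replicate numbers did not pair the libraries (correlations of deviations from -0.0069 to 0.0408 between KO 48 h and KO 0 h over 8097 genes); with a replicate block the calls were 1753, and 13 for the KO against WT difference. Of the library measures, with 1 library left out (smallest exact permutation p then 0.0571), the KO 48 h minus KO 0 h difference in summed FPKM ran from -320970 to -273090, in genes above 0 from 1276 to 1435.8, in the antisense share from -12.701 to -12.269 percentage points, in the mitochondrial share from 9.5056 to 10.094 and in the ribosomal protein share from 0.093399 to 0.12239. Values of a few FPKM rest on few fragments, so changes of such genes were hard to detect at this depth.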
